A study of Mus musculus with 18 samples.

Results

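Neurofilaments, microtubules and actin filaments form the internal scaffold of neurons, and the messages of 10 of their genes were followed in immunoprecipitated brain RNA and in whole brain RNA. The genes were the neurofilament subunits Nefl, Nefm and Nefh with the related filament protein Ina, the beta tubulins Tubb3, Tubb2a and Tubb5 with the alpha tubulin Tuba1a, and the cytoplasmic actins Actb and Actg1. Members were all probe sets annotated to exactly 1 of these symbols, 16 of the 45037 probe sets tested. A probe set is a group of short array probes read out as 1 intensity. It covers only a stretch of a transcript, and the positions of these probe sets along their transcripts were not used here. Another probe set, annotated to both Gm6682 and Tuba1a, was left out, and 3 control segments for beta-actin are described apart.

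The first group (IP) was 9 arrays of polyA RNA that was co-immunoprecipitated with a flag-tagged rat poly(A)-binding protein from formaldehyde-perfused brains, and the second (WB) was 9 arrays of whole brain total RNA. Both groups came from transgenic mice, whose background was C57BL/6J X DBA/2J. Their bacterial artificial chromosome carried the tagged protein's cDNA, an internal ribosome entry site and eGFP in place of the orexin coding sequence, so that orexin regulatory sequence drove the transgene. The labels name ages of 11 and 14 weeks without tying them to samples. No IP from mice without the transgene was used here. Per the labels' protocols, 5 ng of either RNA was amplified. The labels do not say that each sample was its own animal, so the spread behind each p-value is that between samples and may be partly technical. In such bulk samples, fewer cells of a type and less RNA per cell cannot be told apart.

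Neurofilaments are heteropolymers of light, medium and heavy subunits that fill large axons, and Ina co-assembles with them in neurons of the central nervous system. Microtubules are built from dimers of alpha and beta tubulin, each made from several genes, and serve as tracks for axonal transport. Beta- and gamma-actin, encoded by Actb and Actg1, differ at only a few residues and form the filaments beneath the membrane and in growth cones and dendritic spines.

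The arrays of the 2 groups differed in ways that touch every value below. Each array had been scaled to a trimmed mean near 500, and the bacterial hybridization controls, which are added in fixed amounts, averaged 13.69 to 15.31 in IP arrays and 13.05 to 13.54 in WB arrays (mean log2 intensity of 18 control probe sets). They were highest in IP replicates 2, 5, 6 and 8, at 14.51 to 15.31. Of 5 general neuron markers, each by its brightest probe set, 2 rose and 3 fell, with a median difference of -1.51 (log2). Their summed intensity was 61695 to 112153 in IP arrays against 55331 to 70860 in WB arrays. Most of it was Snap25, with medians of 52425 in IP and 36688 in WB. Snap25 was higher by 0.74, but at -0.08 under quantile normalization and at -0.21 when scaled on the hybridization controls. Rbfox3, the other that rose, was at -0.72 (limma adjusted p = 0.00241) averaged over its 3 probe sets. Of 4 orexin neuron markers 1 rose and 1 fell. Hcrt, which encodes orexin, differed by 0.21 (limma adjusted p = 0.568) and Slc17a6 by -0.09 (adjusted p = 0.772). Nptx2 was higher by 1.26 (adjusted p = 5.37e-05), and Pdyn was lower, at -1.30 (adjusted p = 0.00492). Nptx2 was at 0.32 (limma adjusted p = 0.357) when scaled on the hybridization controls. Pdyn was at -0.79 (adjusted p = 0.0668) under quantile normalization. Averaged over its 2 probe sets Slc17a6 was at -1.36 (adjusted p = 4.76e-06). Markers of oligodendrocytes, microglia and mural cells were each split, and 2 of 3 endothelial markers fell while none rose. Of 3 red blood cell markers 2 fell and none rose, with a sum of 251 to 1253 in IP arrays against 4746 to 15684 in WB arrays. The part of these differences in the members' results was not tested.

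More member probe sets were lower than higher in IP than in WB, with Tubb3 and Actb 1436722_a_at the lowest under each of the 4 scalings tried. At an adjusted p of 0.05 in limma, 3 of the 16 member probe sets were higher and 11 lower in IP, against 14.2% and 30.8% of all probe sets tested. A change of at least 2-fold was reached by 0 of those higher and by 8 of those lower, against 7.72% and 21.9% of all probe sets. With each gene represented by its brightest probe set, 3 of the 10 genes were higher and 6 lower, against 21.7% and 21.7% of the 18193 genes measured. All 9 IP arrays lay above all 9 WB arrays for 1 member probe set and below them for 8, against 5.22% and 10.3% of all probe sets, and the groups overlapped for the other 7. The median difference, IP minus WB, was -0.89 over the member probe sets and -0.23 over all probe sets (log2). Differences are of log2 intensity after adding 16, so folds of dim probe sets are understated.

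**Figure D1:**
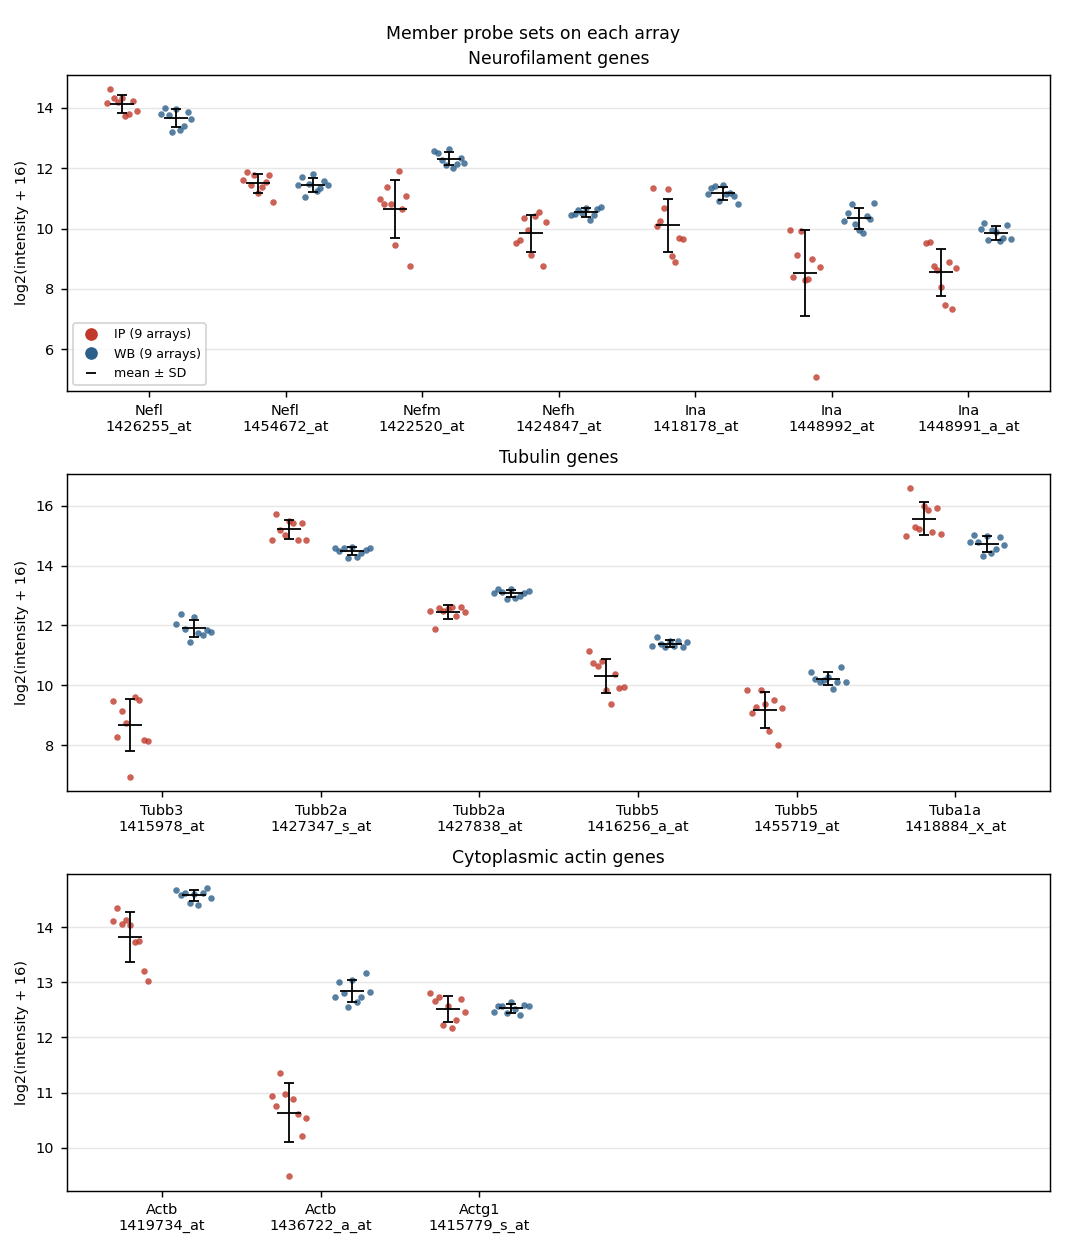
Log2 of intensity plus 16 for the 16 member probe sets, IP left of WB in each pair, with 1 point per array and the mean ± SD of 9 arrays. In intensity on the deposited scaling Tubb3 sat between 108 and 767 in IP arrays and between 2751 and 5367 in WB arrays, while Tubb2a 1427347_s_at sat higher in all IP arrays, an order that turned under quantile normalization and under scaling on the hybridization controls.

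The 4 intermediate filament genes did not move together on the deposited scaling: Nefm, Nefh and Ina were lower in IP, and the brighter Nefl probe set was higher. Nefm encodes the medium neurofilament subunit. Its probe set 1422520_at gave 418 to 3843 in IP arrays (median 1793), against 4134 to 6313 in WB arrays (median 4986). Every IP array was below every WB array, and the IP arrays themselves spanned 9.2-fold, from replicate 9 at the low end to replicate 6. The difference was -1.67 (SE 0.28, limma adjusted p = 2.97e-05), or 3.17-fold lower. It kept its direction under all scalings tried, between -2.61 and -1.24.

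Nefh, the heavy subunit with a long phosphorylated tail, changed less. Its probe set 1424847_at gave 419 to 1485 in IP arrays (median 986), against 1227 to 1669 in WB arrays (median 1450). Of the IP arrays 6 lay below all WB arrays and 3 lay among them. The difference was -0.70 (SE 0.20, limma adjusted p = 0.00653), or 1.62-fold lower, and with arrays centred on their medians it was -0.27 (adjusted p = 0.249). Without IP replicates 2, 5, 6 and 8 it was -0.41.

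Ina was lower in IP with each of its 3 probe sets. Probe set 1418178_at gave 464 to 2587 in IP arrays (median 1078), against 1776 to 2746 in WB arrays (median 2254). Probe set 1448992_at gave 17.8 to 971 in IP arrays (median 407), against 913 to 1818 in WB arrays (median 1254). Probe set 1448991_a_at gave 147 to 731 in IP arrays (median 402), against 750 to 1151 in WB arrays (median 930). The groups were separate for the last of these, and for each of the others 7 IP arrays lay below all WB arrays, with IP replicate 1 inside the WB range for both. The differences were -1.05 (SE 0.26, limma adjusted p = 0.00201) for 1418178_at, -1.81 (SE 0.42, adjusted p = 0.000897) for 1448992_at and -1.31 (SE 0.25, adjusted p = 0.000159) for 1448991_a_at. With median centring the first was -0.63 (adjusted p = 0.0715). Without IP replicates 2, 5, 6 and 8 the second was -1.01.

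Nefl, the light subunit that neurofilaments need to assemble, gave 1 higher probe set and 1 without a detectable difference. Probe set 1426255_at gave 13477 to 25372 in IP arrays (median 18786), against 9484 to 16400 in WB arrays (median 13804). Of the IP arrays 6 lay above all WB arrays, and the groups overlapped. The difference was 0.48 (SE 0.14, limma adjusted p = 0.00562), or 1.4-fold higher, but -0.59 (adjusted p = 3.84e-05) under quantile normalization and -0.46 (adjusted p = 0.0123) with arrays scaled on the hybridization controls. Probe set 1454672_at gave 1871 to 3735 in IP arrays (median 2998), against 2115 to 3580 in WB arrays (median 2788). Its ranges overlapped almost wholly, and the difference was 0.04 (SE 0.14, limma adjusted p = 0.844; 95% confidence interval -0.25 to 0.32). It was -0.90 (adjusted p = 0.00043) when scaled on the hybridization controls and 0.46 (adjusted p = 0.0206) with median centring.

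Among the tubulins, Tubb3 and Tubb5 were lower in IP, Tuba1a was higher on the deposited scaling, and the 2 probe sets of Tubb2a went opposite ways. Tubb3 encodes the neuron-specific beta-III tubulin that is widely used as a neuronal marker. Its probe set 1415978_at gave 108 to 767 in IP arrays (median 408), against 2751 to 5367 in WB arrays (median 3674). The brightest IP array was well below the dimmest WB array. The difference of -3.23 (SE 0.27, limma adjusted p = 5.73e-10), or 9.4-fold lower, was the largest among the 16 member probe sets and lay between -4.18 and -2.81 over the scalings tried. Within an array, Tubb3 was brighter than 40.8% to 83.7% of probe sets in IP arrays (median 71.2%), against 96.0% to 98.1% in WB arrays (median 97.0%).

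Tubb5 encodes a beta tubulin found in many cell types, dividing ones included. Its probe set 1416256_a_at gave 641 to 2251 in IP arrays (median 1321), against 2481 to 3106 in WB arrays (median 2640). Its probe set 1455719_at gave 242 to 909 in IP arrays (median 603), against 929 to 1564 in WB arrays (median 1130). The groups were separate for both. The differences were alike, at -1.08 (SE 0.19, limma adjusted p = 3.43e-05) and -1.03 (SE 0.21, adjusted p = 0.000232), and the second was -0.67 without IP replicates 2, 5, 6 and 8.

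Tubb2a encodes an abundant neuronal beta tubulin. Probe set 1427347_s_at gave 29463 to 54584 in IP arrays (median 37533), against 19366 to 25238 in WB arrays (median 23433). It was the member with all IP arrays above all WB arrays. The difference was 0.72 (SE 0.12, limma adjusted p = 3.74e-05), or 1.65-fold higher, but -0.36 (adjusted p = 9.75e-05) under quantile normalization and -0.22 (adjusted p = 0.0785) when scaled on the hybridization controls. The suffix _s_at marks probe sets whose sequence is shared with other transcripts, and the neighbouring Tubb2b is a near-identical gene, so the assignment to Tubb2a is uncertain. Probe set 1427838_at gave 3793 to 6328 in IP arrays (median 5772), against 7587 to 9454 in WB arrays (median 8761). Here all IP arrays were below all WB arrays, with a difference of -0.63 (SE 0.11, limma adjusted p = 3.61e-05), which was -0.20 (adjusted p = 0.225) with median centring. The mean of both Tubb2a probe sets differed by 0.05 (adjusted p = 0.70).

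Tuba1a encodes the main alpha tubulin of neurons in the developing brain and one that persists in the adult. Its probe set 1418884_x_at gave 32437 to 97832 in IP arrays (median 40491), against 20403 to 33200 in WB arrays (median 28003). Of the IP arrays 8 lay above all WB arrays, and replicate 2 was the highest by far. The difference was 0.84 (SE 0.18, limma adjusted p = 0.000494), or 1.79-fold higher, but -0.17 (adjusted p = 0.0417) under quantile normalization and -0.10 (adjusted p = 0.357) when scaled on the hybridization controls. The suffix _x_at marks probe sets that can match several genes. Tuba1a lies between Tuba1b and Tuba1c, close relatives for which no probe set with a single symbol was measured.

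The high values of Tuba1a and of the _s_at probe set of Tubb2a went with the hybridization controls. In IP replicates 2, 5, 6 and 8 Tuba1a read 97832, 65931, 60019 and 62428, and in the other 5 IP arrays it read 32437 to 40491. In the same 4 arrays Tubb2a 1427347_s_at read 54584, 46434, 44420 and 43839, and in the other 5 it read 29463 to 37533. Neither probe set overlapped between these sets of IP arrays. Without the 4 arrays the difference from WB was 0.41 for Tuba1a and 0.47 for Tubb2a 1427347_s_at, in place of 0.84 and 0.72. The IP values of the other Tubb2a probe set did not follow this order: its lowest and highest IP arrays, replicates 2 and 6, were both among the 4. Over the 9 WB arrays the correlation with the hybridization controls was above the 95th percentile of all probe sets, 0.65, for 7 of the 16 member probe sets, from 0.70 for Tubb3 to 0.88 for Tubb2a 1427347_s_at. The others of the 7 were Nefl 1426255_at at 0.87, Nefm at 0.84, Tuba1a at 0.81, Actb 1419734_at at 0.77 and Tubb2a 1427838_at at 0.76. Over the 9 IP arrays that percentile was 0.63, and of these 7 only Tuba1a, at 0.98, and Tubb2a 1427347_s_at, at 0.93, were above it. The rest of the 7 lay from -0.52 for Tubb2a 1427838_at to 0.47 for Nefl 1426255_at, with Tubb3 at -0.39. All of these values come from the same arrays and share their scaling.

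Beta-actin message was lower in IP with both Actb probe sets and with the 3 control segments, whereas the gamma-actin probe set showed no detectable difference on the deposited scaling. Probe set 1419734_at of Actb gave 8266 to 20848 in IP arrays (median 16857), against 21560 to 26811 in WB arrays (median 24920). Probe set 1436722_a_at of Actb gave 701 to 2607 in IP arrays (median 1711), against 5986 to 9188 in WB arrays (median 7182). No IP array reached the WB range with either. The difference was -0.75 (SE 0.15, limma adjusted p = 0.000166), or 1.69-fold lower, for 1419734_at and -2.20 (SE 0.18, adjusted p = 3.33e-10), or 4.59-fold lower, for 1436722_a_at. With median centring the first was -0.33 (adjusted p = 0.119).

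Actg1 was read by 1 probe set of the shared-sequence class, 1415779_s_at. It gave 4626 to 7106 in IP arrays (median 6079), against 5385 to 6415 in WB arrays (median 6044). The IP arrays lay on both sides, 4 above and 3 below all WB arrays. The difference was -0.02 (SE 0.11, limma adjusted p = 0.920; 95% confidence interval -0.23 to 0.20), but 0.41 (adjusted p = 0.0146) with median centring, -0.73 (adjusted p = 2.68e-07) under quantile normalization and -0.96 (adjusted p = 6.81e-05) when scaled on the hybridization controls.

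The control segments read beta-actin message near its 5′ end, in its middle and near its 3′ end. The 5′ segment gave 792 to 1676 in IP arrays (median 1202), against 5606 to 9007 in WB arrays (median 6601). The middle segment gave 267 to 1100 in IP arrays (median 609), against 5027 to 6558 in WB arrays (median 5732). The 3′ segment gave 613 to 1677 in IP arrays (median 920), against 4874 to 8161 in WB arrays (median 5774). None of the 3 overlapped between the groups. The differences were -2.47 (SE 0.13), -3.26 (SE 0.18) and -2.66 (SE 0.17), or 5.54-fold, 9.58-fold and 6.3-fold lower, and over the 4 scalings tried they lay between -4.20 and -2.04. The exact two-sided permutation p was 4.11e-05 for each, the smallest the 48620 divisions of the arrays allow (adjusted p = 5.48e-05 over 4 actin measures).

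The fourth measure, the log2 ratio of the 3′ to the 5′ segment, was -0.35 ± 0.44 in IP arrays and -0.17 ± 0.08 in WB arrays (SD, n = 9 each). The groups differed by -0.19 (SE 0.15; exact permutation p = 0.249), and by -0.07 without IP replicate 8. For Gapdh, a glycolytic enzyme with control segments on the same arrays, the 3′ to 5′ ratio was higher by 2.58 (exact permutation p = 4.11e-05, adjusted p = 8.23e-05 over 4 transcripts), with no overlap. For Pcx, a mitochondrial carboxylase, it went the other way, lower at -2.41 (exact permutation p = 4.11e-05, adjusted p = 8.23e-05) with no overlap. The Pcx 3′ segment was dim in IP arrays, at 21.6 to 183 (median 33.3), so this ratio rests on little signal. For the transferrin receptor Tfrc the ratio differed by 0.06 (exact permutation p = 0.777). A ratio of 3′ to 5′ signal is used as a sign of RNA integrity and of how far amplification reaches, and its part in the members' differences was not tested.

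**Figure D2:**
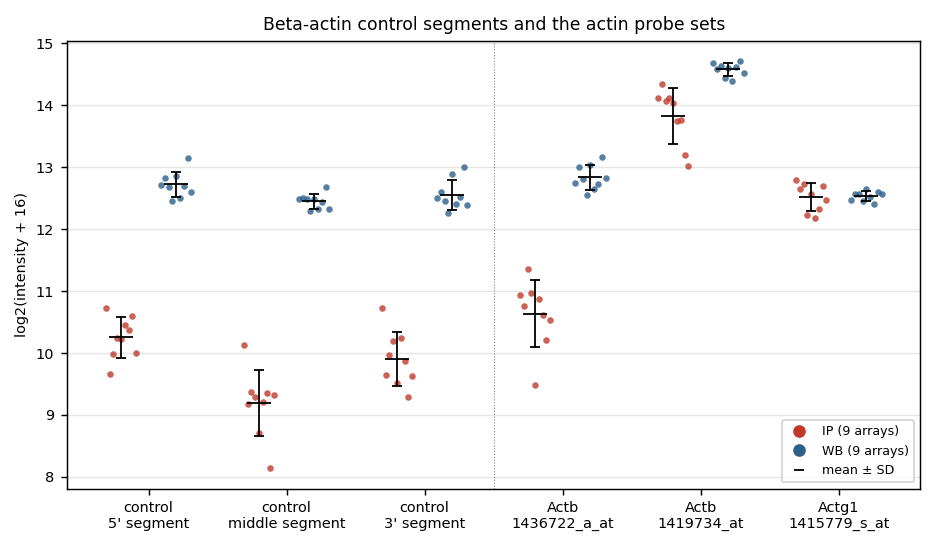
Log2 of intensity plus 16 for the 3 beta-actin control segments and the actin probe sets, IP left of WB, with 1 point per array and the mean ± SD of 9. In intensity the segments lay between 267 and 1677 in IP arrays and between 4874 and 9007 in WB arrays, and Actg1 overlapped between the groups on the deposited scaling shown.

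The choice of scaling decided the sign of 5 member probe sets, those of Nefl, Tuba1a, Actg1 and Tubb2a 1427347_s_at, while Tubb3, Nefm and Actb 1436722_a_at kept theirs. The median difference over all probe sets was -0.23 as deposited, 0.11 under quantile normalization, 0.20 with median centring and -1.17 when scaled on the hybridization controls. The median over the 16 member probe sets was -0.89, -1.09, -0.47 and -1.84 in the same order, below that of all probe sets each time. Of all probe sets past the threshold, 31.6%, 52.3%, 60.6% and 4.04% were higher in IP. Of the 16 member probe sets, 3, 0, 5 and 0 passed as higher and 11, 15, 7 and 14 as lower.

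**Figure D3:**
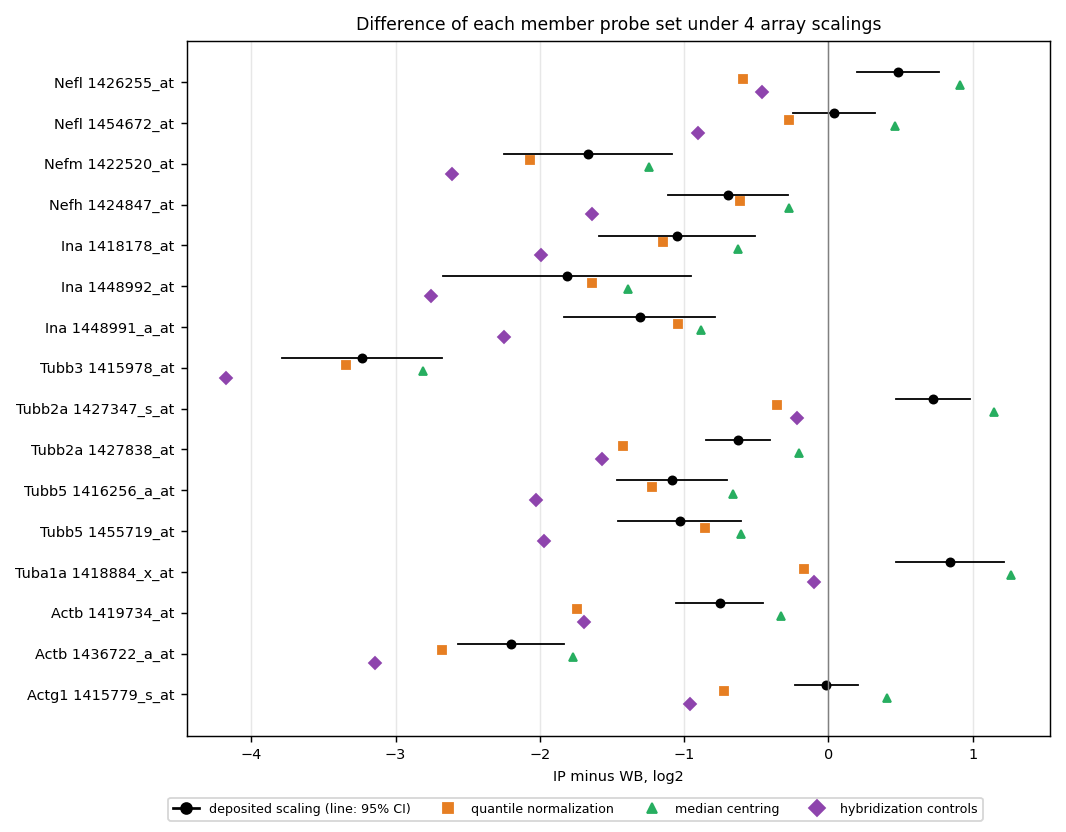
Difference in log2 intensity, IP minus WB, of each member probe set under 4 scalings of the arrays, with the 95% confidence interval for the deposited scaling. Tubb3 lay between -4.18 and -2.81 throughout, whereas Nefl 1426255_at, Tubb2a 1427347_s_at, Tuba1a and Actg1 lay on both sides of 0.

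Ratios between members on the same array hardly depend on a factor that scales the whole array, and most of those between genes differed between the groups. Of 20 such ratios, chosen after the data had been seen, 13 passed an adjusted p of 0.05 by exact two-sided permutation, 10 of 13 within a protein family and 3 of 7 within a gene. The share among ratios of other probe sets is not given, so these counts are not read as particular to the members. Of all single probe sets, 14.2% were higher and 30.8% lower in limma. The values below are differences of the log2 ratio, IP minus WB, and the smallest adjusted p reached by these ratios was 0.000118.

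Among the filament subunits the ratio of Nefl to Nefm was higher in IP by 2.15 (SE 0.34, adjusted p = 0.000118, exact permutation), with no overlap between 9 and 9 arrays. Against Ina, Nefl was higher by 1.54 (adjusted p = 0.000183), and against Nefh by 1.18 (adjusted p = 0.00112). The last was 0.02 (adjusted p = 0.915) after quantile normalization, which unlike the other scalings changes ratios within an array. The ratio of Nefm to Nefh was lower, at -0.97 (SE 0.37, adjusted p = 0.00981). The ratio of Nefm to Ina differed by -0.62 (adjusted p = 0.287) and that of Nefh to Ina by 0.35 (adjusted p = 0.49), which did not pass.

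Tubb3 was lower against the brightest probe sets of the other 3 member tubulins, by exact permutation over the 9 IP and 9 WB arrays. The differences were -4.07 (SE 0.41, adjusted p = 0.000118) against Tuba1a, -3.96 (SE 0.36, adjusted p = 0.000118) against Tubb2a and -2.15 (SE 0.32, adjusted p = 0.000247) against Tubb5. The ratio of Tubb5 to Tuba1a was also lower, at -1.92 (SE 0.31, adjusted p = 0.000118), and that of Tubb2a to Tubb5 was higher by 1.81 (SE 0.25, adjusted p = 0.000118). The ratio of Tubb2a to Tuba1a differed by -0.12 (SE 0.10, adjusted p = 0.287). In all these ratios Tubb2a was read by 1427347_s_at, whose assignment to Tubb2a is uncertain. Ratios of Tubb2a 1427838_at, itself at -0.63, to the other tubulins were not tested. The ratio of Actb to Actg1 was lower, at -0.74 (SE 0.16, adjusted p = 0.000183).

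Probe sets of the same gene also changed unequally for Tubb2a, Actb and Nefl. The 2 Tubb2a probe sets changed unequally by 1.35 (SE 0.15, adjusted p = 0.000118, exact permutation) and the 2 Actb probe sets by 1.44 (SE 0.21, adjusted p = 0.000118), with the larger IP to WB ratio on the brighter one of each gene and no overlap. The Nefl probe sets differed by 0.45 (SE 0.14, adjusted p = 0.00981), which was -0.32 after quantile normalization. The Tubb5 probe sets differed by -0.05 (SE 0.18, adjusted p = 0.774), and the 3 ratios among Ina probe sets did not pass, with adjusted p-values from 0.207 to 0.49.

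**Figure D4:**
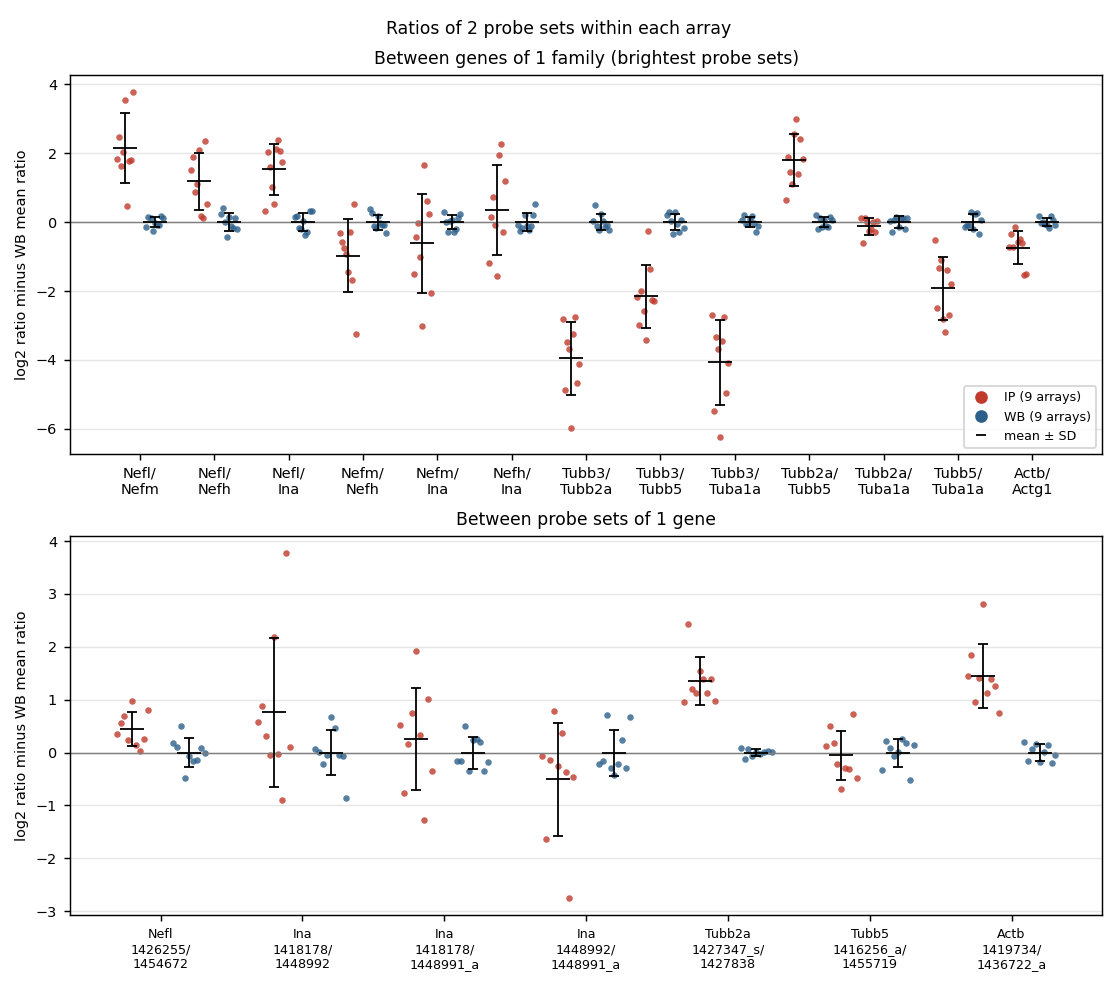
Log2 ratio of pairs of member probe sets, less its mean over WB arrays, with IP left of WB, 1 point per array and the mean ± SD of 9; between genes above, within genes below. Nefl over Nefm and the ratios of Tubb3 to Tubb2a and Tuba1a did not overlap between the groups, whereas Tubb2a over Tuba1a did. Between genes, Tubb2a was read by 1427347_s_at.

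Members varied more between IP arrays than between WB arrays, and so did all probe sets by their median SD. The SD of log2 intensity was larger in IP for 16 of the 16 member probe sets, at 0.23 to 1.44 in IP and 0.08 to 0.34 in WB. The median SD was 0.56 in IP and 0.22 in WB for the members, against 0.74 and 0.34 for all probe sets. Actg1 and Tubb2a 1427838_at varied least in IP, and Ina 1448992_at varied most. Over the 45 pairs of genes by brightest probe set, correlations of deviations had a median of 0.13 in the 9 IP arrays. They ranged from -0.57 to 0.98, with Tuba1a and Tubb2a 1427347_s_at the most alike. Over the 9 WB arrays the median was 0.53, from -0.07 to 0.99, with Tuba1a and Nefl the most alike. The IP values include the 4 arrays with high hybridization controls. Each is a description, as all pairs share the same arrays and their scaling.

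The median rank of brightness within the array was lower in IP for all 16 member probe sets, those with higher intensity in IP included. All 16 were bright in WB, with median ranks from 83.97% to 99.98%. The share over equally bright probe sets is not given, so the count is not read as a trait of the members. Nefm was brighter than 71.1% to 95.9% of probe sets in IP arrays (median 92.0%), against 97.7% to 98.6% in WB arrays (median 98.1%). Actb 1419734_at was brighter than 98.1% to 99.6% in IP arrays and than 99.94% to 99.98% in WB arrays, which did not overlap. Tubb2a 1427347_s_at, higher in intensity in IP, ranked at 99.81% to 99.93% in IP arrays against 99.94% to 99.96% in WB arrays. Tuba1a ranked at 99.92% to 99.99% in IP arrays and at 99.96% to 99.99% in WB arrays, which overlapped.

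Related cytoskeletal genes were split between higher and lower in IP. Of 99 listed genes 90 were measured, and on the brightest probe set of each 30 were higher and 34 lower, with a median difference of -0.06, but 12 higher and 60 lower when scaled on the hybridization controls. When the probe sets of a gene were averaged, 9 were higher and 39 lower. Among the other alpha tubulins 1 of 3 passed, Tuba4a, higher by 1.05 (limma adjusted p = 0.000116), but at -0.05 under quantile normalization and at -0.07 averaged over its 3 probe sets. Of 5 other beta tubulins 2 were higher and 2 lower. Tubb4a, which is abundant in myelinating oligodendrocytes and neurons, gave 13741 to 29415 in IP arrays and 4816 to 5677 in WB arrays, a difference of 1.89 (SE 0.13, limma adjusted p = 1.44e-11) that was positive under every scaling tried. Tubb2b was higher by 1.21 (adjusted p = 2.38e-07), with 0.07 (adjusted p = 0.419) under quantile normalization. Tubb6 was lower, at -1.96 (adjusted p = 5.2e-07), as was Tubb4b at -1.37 (adjusted p = 1.16e-07), which was 0.31 (adjusted p = 0.155) averaged over its 6 probe sets.

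Of 4 gamma, delta and epsilon tubulins, 1 was higher and 1 lower: Tube1 at 1.22 (limma adjusted p = 0.0346; 0.43, adjusted p = 0.192, averaged over its 3 probe sets) and Tubg1, of the microtubule-nucleating ring, at -0.996 (adjusted p = 0.0012). Among 13 tubulin-folding cofactors and chaperonin subunits 7 were higher and 6 lower, with a median of 0.40 that was -0.42 under quantile normalization and -0.54 when scaled on the hybridization controls. The cofactor Tbce was higher by 1.66 and the chaperonin subunit Cct3 by 1.34, whereas Cct7 differed by -1.62 and the cofactor Tbcb by -1.61. The Cct3 difference was 0.08 (adjusted p = 0.746) averaged over its 7 probe sets.

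Of 10 tubulin-modifying enzymes 2 were higher and 2 lower, with 5 higher and 1 lower under median centring and 0 higher and 8 lower when scaled on the hybridization controls. The higher ones were the polyglutamylase subunit Ttll1, at 1.88, and the tyrosine ligase Ttl, at 1.04, and neither passed when its probe sets were averaged (0.05 and -0.03). The lower ones were the deglutamylases Agtpbp1, at -1.14, and Agbl4, at -0.84. Averaged over their probe sets Agtpbp1 was at -0.63 and Agbl4 at -0.21 (adjusted p = 0.477), and Agbl4 did not pass under quantile normalization or median centring either (adjusted p = 0.0516 and 0.13). Among 16 motor subunits 4 were higher and 8 lower, with 7 higher and 5 lower under median centring. The kinesin Kif1a, which carries synaptic vesicle precursors, gave 83.5 to 804 in IP arrays and 2060 to 4550 in WB arrays, a difference of -3.17 (SE 0.32, limma adjusted p = 1.12e-08). The dynein light chain Dynll2 was lower, at -2.65, while Dynll1 was higher by 1.58 and the intermediate chain Dync1i1 by 0.71. Averaged over its 4 probe sets Dynll1 was at 0.23 (adjusted p = 0.079), and Dync1i1 was at -0.23 when scaled on the hybridization controls.

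Of 7 other actins and actin-related genes 1 was higher and 2 were lower. Actl6b, the neuronal subunit of a chromatin-remodelling complex, differed by -2.81 (limma adjusted p = 1.93e-07), while its counterpart in dividing cells, Actl6a, was higher by 2.61 (adjusted p = 2.36e-09) on 1 of its 3 probe sets, one that can match several genes, and by 0.78 averaged over them. The dynactin subunit Actr1a was lower, at -0.95, or -0.43 averaged. Of 21 actin-binding and actin-assembly genes 9 were higher and 11 lower, with 10 higher and 6 lower under median centring. The crosslinker Actn1, at 2.23, and the tropomyosin Tpm3, at 2.15, were higher, but neither passed when its probe sets were averaged (0.12 and 0.23). The Arp2/3 complex subunit Arpc4, at -1.53 (-2.34 averaged), and profilin Pfn1, at -1.42, were lower. Among 11 other intermediate filament genes 3 were higher and 2 lower, with 1 higher and 5 lower when scaled on the hybridization controls. The astrocyte filament Gfap was the highest at 2.71 (0.38, adjusted p = 0.096, averaged over its 3 probe sets). The nuclear lamin Lmna was higher by 1.60 on a probe set of the shared-sequence class, and was at 0.10 (adjusted p = 0.662) averaged over its 5 probe sets. The lamin Lmnb2, at -1.49, and the muscle filament Des, at -1.16, were lower, with Des at -0.55 averaged. On their brightest probe sets the other 3 astrocyte markers did not move together. Aqp4 was higher by 0.68 (limma adjusted p = 0.00027), Aldh1l1 was lower, at -2.46 (adjusted p = 6.94e-07), and Slc1a3 differed by -0.25 (adjusted p = 0.115). Averaged over their probe sets all 3 were lower. Aqp4 was then at -0.49 (limma adjusted p = 0.0204), Aldh1l1 at -1.08 (adjusted p = 0.00208) and Slc1a3 at -0.94 (adjusted p = 6.15e-06). The summed intensity of these 3 by brightest probe set, without Gfap, was 5524 to 7940 in IP arrays and 4462 to 6968 in WB arrays. Their part in the Gfap difference was not tested. When scaled on the hybridization controls Tuba4a, Tube1, Cct3, Ttll1, Ttl, Dync1i1 and Lmna did not pass. Neither did Aqp4, at -0.26 (limma adjusted p = 0.24).

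**Figure D5:**
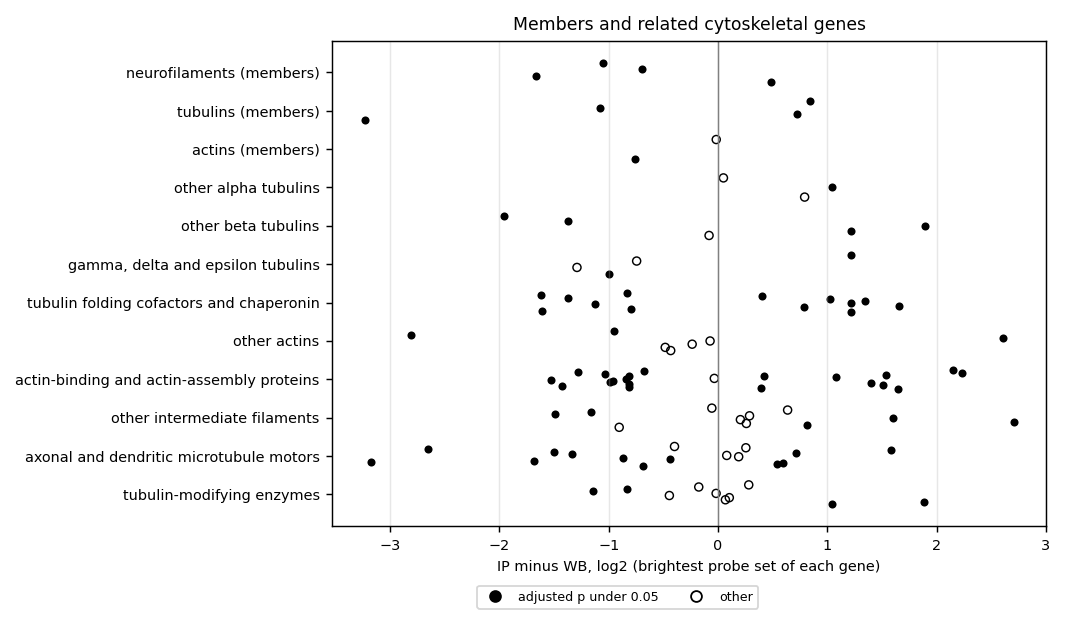
Difference in log2 intensity, IP minus WB on the deposited scaling, of the brightest probe set of the members and of 90 related genes in 9 lists, with 1 point per gene, filled where adjusted p was under 0.05. Each related list but the other alpha tubulins held filled points on both sides of 0, and among the related genes Kif1a was lowest at -3.17 and Gfap highest at 2.71.

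Array-to-array deviations of the members' brightest probe sets were most like those of Syp, which encodes the synaptic vesicle protein synaptophysin. The correlation of deviations from the group means was 0.90 over the 18 arrays for Syp, with 0.89 in IP and 0.94 in WB. Nudc, Tacc1, Atp2b1 and Lrrn3 followed at 0.87, 0.86, 0.84 and 0.83. Their own differences between the groups were -1.22 for Syp, -0.90 for Nudc, -0.67 for Tacc1 and -0.93 for Atp2b1, and -0.31 for Lrrn3, which did not pass (limma adjusted p = 0.266). These correlations describe 18 arrays with a shared scaling.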

How the data were processed

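RNA of 9 IP and 9 WB samples was hybridised to 1 array each. The deposited values are linear intensities that the authors made with MAS5 (version not given), per the submitters' processing notes. Groups were taken from the labels. Of 45101 probe sets 64 array controls were left out, and log2 of the intensity plus 16 was tested with limma 3.58.1 in R 4.3.3 (empirical Bayes with intensity trend, statmod 1.5.0, Benjamini-Hochberg over 45037 probe sets, threshold 0.05) with no filter on brightness. Symbols came from the platform annotation: 34945 probe sets had 1, 932 had several and 9160 had none. All 16 member symbols matched a reference gene table by Entrez ID, which was used for names and neighbours only. Single measures and ratios were compared by exact permutation. All 10 members and their probe sets are named. Each related list gives up to 4 names, the 2 highest and 2 lowest genes past the threshold, and the 5 genes most like the members are named too. Members and lists were chosen with earlier results of these data known. Same-numbered IP and WB arrays deviated with correlations of -0.05 to 0.08, and no label says that the numbers pair samples. They were not taken to do so. These correlations do not exclude a pairing, and counts with the replicate number as a block are given below. No 2 arrays held identical values. The test was itself tested on simulated data that had the WB spread in both groups, and so not under the larger IP spread. The precision of all values is limited by the number of arrays. Alternatives were other pseudocounts, scalings, brightness filters, array weights, a replicate block, the mean over probe sets, and leaving out arrays or shared-sequence probe sets. Leaving out 4 IP arrays together and all settings of the within-array ratios were chosen after seeing the data.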

Additional observations from a re-analysis of the deposited data

Results flagged for a closer look

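In 40 groups of 9 values, for the 16 member probe sets, the 3 beta-actin control segments and the beta-actin 3′ to 5′ ratio in IP and in WB, 3 values stood apart from the rest of their group by Dixon's criterion, and chance alone marks some groups at the 95% level used. Ina 1448992_at read 17.8 in IP replicate 8, where the next lowest IP array read 300.4, and without that array the IP minus WB difference was -1.38 in place of -1.81 (log2). Tubb2a 1427838_at read 3793 in IP replicate 2, where the next lowest IP array read 5100. The log2 ratio of the beta-actin 3′ to 5′ segment was 0.0282 in WB replicate 5, where the next highest WB array was at -0.11.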

How the results depend on the processing

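Leaving out any single array changed no call of a member probe set. The direction of Nefm, Nefh, Ina, Tubb3, Tubb5, Actb and Tubb2a 1427838_at was the same under all alternatives run. Quantile normalization gave 10869 probe sets higher in IP, with 0 member probe sets and 0 member genes higher and 10 member genes lower. It turned Nefl 1426255_at (-0.59), Tubb2a 1427347_s_at (-0.36), Tuba1a (-0.17) and the ratio of the Nefl probe sets (-0.32). Median centring gave 12802 probe sets higher and 8322 lower, with 5 member probe sets higher, 7 lower and 3 member genes lower, and turned Actg1 (0.41). Scaling on the hybridization controls gave 1297 higher and 30824 lower, with 0 member probe sets and 0 member genes higher, and 12 related genes higher and 60 lower. It turned Nefl 1426255_at (-0.46), Nefl 1454672_at (-0.90), Tubb2a 1427347_s_at (-0.22) and Tuba1a (-0.10). Without probe sets of the shared-sequence classes 1 member probe set was higher. Averaging probe sets left 1 member gene and 9 related genes higher, with 39 related genes lower. The cause of these changes was not tested. The ratio of Ina 1418178_at to 1448992_at passed without IP replicate 7 (0.97, adjusted p = 0.0411) and that of Nefm to Ina without the 4 IP arrays (-0.80, adjusted p = 0.0471). With the replicate block 6313 probe sets were higher and 13707 lower, and 3 member probe sets were higher and 11 lower, as without it. Dim probe sets rest on little signal over background. All 16 members had mean log2 intensities of at least 7 over the 18 arrays. Single IP values lay below 7, with Ina 1448992_at at 5.08 in replicate 8 and Tubb3 at 6.95 in replicate 5.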
